A study of Homo sapiens with 15 samples.

Results

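The genes described here are 37 targets of p53, taken by name from a table of 57736 genes measured in IMR90, a fibroblast line established from human fetal lung. They were listed as genes of the p53 pathway, with CDKN1A, the TRAIL receptors and the BCL2 family left out and FAS kept. Total RNA came from 5 groups of 3 libraries each: senescent cells that carry shTXNRD1, a short hairpin RNA directed at TXNRD1, senescent cells with the TXNRD1 inhibitor TRi-1, senescent cells with its vehicle DMSO, senescent control cells, and growing control cells. TXNRD1 encodes the thioredoxin reductase of the cytosol, the enzyme that keeps thioredoxin reduced. The shTXNRD1 group was set against the senescent control, the TRi-1 group against DMSO, and the senescent control against the growing control. All 5 groups share the one cell line. How the cells were made senescent, how much TRi-1 they received and for how long, what the hairpin control carried, and whether replicates were separate cultures is not in the labels, so p-values measure the spread between these libraries.

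The transcription factor p53 is held low in unstressed cells by MDM2, a ubiquitin ligase that is itself a p53 target. After DNA damage or other stress p53 accumulates and binds response elements in its target genes, which arrest the cell cycle, repair DNA, change metabolism and redox defence, or promote cell death. In senescent fibroblasts p53 is one of the factors known to hold the growth arrest.

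Levels below are CPM, a gene's counts relative to its TMM-scaled library total, and changes are log2 fold changes ± standard error (SE). The quasi-likelihood test of edgeR gave the p-values, which were adjusted over the 15994 genes tested (Benjamini-Hochberg), and calls were made where the adjusted value was under 0.05. All 37 targets passed the filter on low counts. No library held 0 counts for any of them, and single values lay between 22 counts (ACER2) and 9293 counts (PERP).

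Library totals lay between 18033076 and 28909046 counts (median 21156213). The summed level of 8 fibroblast markers was 11616 to 15186 CPM with shTXNRD1, 11167 to 11922 CPM with TRi-1, 14611 to 17204 CPM with DMSO, 16179 to 18848 CPM in the senescent control and 15980 to 21313 CPM in growing cells. PTPRC, CDH5 and CDH1, which define leukocytes, endothelium and epithelium, reached at most 0.247, 0.445 and 0.37 CPM in any library. Other genes of those lists were expressed and moved. The 6 endothelial markers summed to 105 to 133 CPM with shTXNRD1, 51.8 to 55.2 CPM with TRi-1, 85.5 to 91.4 CPM with DMSO, 160 to 172 CPM in the senescent control and 109 to 134 CPM in growing cells, most of it TEK. KDR averaged 8.24 CPM with shTXNRD1, against 0.471 CPM in the senescent control. The 6 leukocyte markers summed to 19.8 to 39.1 CPM with shTXNRD1, 91.8 to 93.5 CPM with TRi-1, 56.9 to 74.3 CPM with DMSO, 72.5 to 80.8 CPM in the senescent control and 15.6 to 26.0 CPM in growing cells, most of it CD68, a lysosomal protein. The 6 epithelial markers summed to 45.8 to 82.8 CPM over all libraries, and EPCAM averaged 3.63 CPM with shTXNRD1, against 1.08 CPM in the senescent control. The 5 proliferation markers MKI67, TOP2A, CCNB1, CDK1 and PCNA summed to 106 to 117 CPM with shTXNRD1, 133 to 135 CPM with TRi-1, 192 to 207 CPM with DMSO, 138 to 144 CPM in the senescent control and 703 to 822 CPM in growing cells. The part of these shifts in the target values was not tested. TXNRD1 itself stood at 21.0, 21.6 and 25.3 CPM in the shTXNRD1 libraries, against 506, 511 and 528 CPM in the senescent control libraries. In the TRi-1 libraries, where the protein and not the mRNA is the target, it stood at 430, 420 and 444 CPM, against 430, 399 and 395 CPM with DMSO. TXNRD1 was also called lower in the senescent control than in growing cells (log2 change -1.67). With DMSO it was called lower than in the senescent control (-0.335).

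Libraries also differed in the GC content of the transcripts counted. Weighted by counts, mean transcript GC was 47.5, 46.8 and 46.0% in shTXNRD1 replicates 1, 2 and 3, 48.0, 48.1 and 47.9% with TRi-1, 46.9, 47.6 and 47.7% with DMSO, 47.6, 47.9 and 47.3% in the senescent control and 46.4, 47.5 and 47.8% in growing cells. The lowest libraries of 3 groups (shTXNRD1 replicate 3, DMSO replicate 1 and growing replicate 1) lay apart from the others of their group. The 5 targets richest in GC (GDF15, FDXR, PLK3, PHLDA3 and SESN2, at 59.5 to 62.9%) were among the 6 whose levels spread most within groups, with mean coefficients of variation of 17 to 38.5%. A correction for GC content, and the set without these 3 libraries, were run as alternatives, and counts and selected values from both are given with the results.

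The promoters were read from RefSeq (GRCh38.p14), as 300 bases from 250 before to 50 after each annotated start. Windows were found for 32 of the 37 targets, and TP53INP1, RRM2B, GADD45A, PHLDA3 and CMBL were not matched. The motif searched was the p53 response element written as 2 adjacent decamers (20 bases), with the core C and G of each decamer kept and at most 3 mismatches elsewhere. It reads the same on both strands. At least 1 window held it in 9 of 32 targets (28.1%), against 373 of all 27305 genes with a window (1.37%). An exact single decamer, which can overlap the longer motif, was in 7 of 32 targets (21.9%), against 8.06% of all genes. The targets were listed for their known link to p53, so the difference describes the list. The 9 matches, called elements below, are shown 5′ to 3′ on the gene's strand, with the 4-base cores of the decamers in capitals. They are matches to a pattern, and p53 binding to them was not measured. Those of SESN1, RPS27L, CES2, FDXR and GDF15 had 3 mismatches, the most allowed.
SESN1: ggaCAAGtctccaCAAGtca
FAS: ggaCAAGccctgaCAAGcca
DDB2: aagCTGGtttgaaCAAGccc
MDM2: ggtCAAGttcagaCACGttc
RPS27L: ggcCTAGagcagaCAAGccc
AEN: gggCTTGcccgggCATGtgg
CES2: ggcCGTGcccgggCCTGcct
FDXR: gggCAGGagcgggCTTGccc
GDF15: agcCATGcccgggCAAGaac
The best match was DDB2, with 1 mismatch, whose element begins 5 bases before the start. The MDM2 element belongs to the p53-responsive internal promoter and begins 94 bases before its start. With shTXNRD1, SESN1, FAS and RPS27L were higher, DDB2 was lower, and MDM2, AEN, CES2, FDXR and GDF15 were not called. Of all genes tested, 25.8% were higher and 24.8% lower. Once GC content was corrected for, FDXR (0.781) and GDF15 (0.995) were called higher too. Both were also called in the set lacking the 3 low-GC libraries (0.564 and 0.664). DDB2 stayed lower in these settings (-0.675 and -0.646), so the called genes with an element did not share a direction.

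Whole windows are shown for 3 targets whose levels took different courses across the groups, with the 20-base element in capitals: DDB2, which was higher in senescence and lower with the hairpin; SESN1, which was higher with the hairpin; and MDM2, the feedback gene.
DDB2 promoter, chr11:47214724-47215023, plus strand: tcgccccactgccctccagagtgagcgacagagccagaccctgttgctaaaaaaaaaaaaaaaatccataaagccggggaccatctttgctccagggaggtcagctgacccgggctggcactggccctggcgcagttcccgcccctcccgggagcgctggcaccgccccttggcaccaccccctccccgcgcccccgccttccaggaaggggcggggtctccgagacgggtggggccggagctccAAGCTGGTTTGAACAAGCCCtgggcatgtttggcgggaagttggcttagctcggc
SESN1 promoter, chr6:109008939-109009238, minus strand: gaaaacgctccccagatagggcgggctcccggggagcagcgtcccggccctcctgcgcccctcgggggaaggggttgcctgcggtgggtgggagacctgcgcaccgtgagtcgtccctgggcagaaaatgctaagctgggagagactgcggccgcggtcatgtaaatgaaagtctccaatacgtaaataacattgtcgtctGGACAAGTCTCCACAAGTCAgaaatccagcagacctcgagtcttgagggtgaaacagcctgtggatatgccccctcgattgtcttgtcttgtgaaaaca
MDM2 promoter, chr12:68808767-68809066, plus strand: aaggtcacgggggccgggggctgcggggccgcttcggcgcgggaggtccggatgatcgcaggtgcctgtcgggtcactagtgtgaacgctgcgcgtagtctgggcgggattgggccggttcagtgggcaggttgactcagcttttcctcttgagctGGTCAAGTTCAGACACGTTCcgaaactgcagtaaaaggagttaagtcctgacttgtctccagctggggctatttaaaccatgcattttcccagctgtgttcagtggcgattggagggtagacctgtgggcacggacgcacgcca

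Senescent control cells were set against growing cells to ask how these genes differ between the 2 states. Of the 37 targets, 19 (51.4%) were higher in senescent cells, against 27.4% of all genes tested, and 5 (13.5%) were lower, against 29.5%. The median change was 0.24 for the targets and 0.03 for all genes. In bulk RNA a change in the number of cells that express a gene and a change in RNA per cell cannot be told apart. A rise of at least 2-fold was called for 10 targets (27%), against 13.4% of all genes, and 0 targets fell by as much, against 7.81% of all genes. The groups did not overlap for 26 targets, or 70.3%, against 63.6% of all genes. Growing replicate 1, a library of low GC, is one of the 3 growing libraries, and without the 3 low-GC libraries 20 targets were higher and 6 lower, against 29.5 and 30.5% of all genes.

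**Figure D1:**
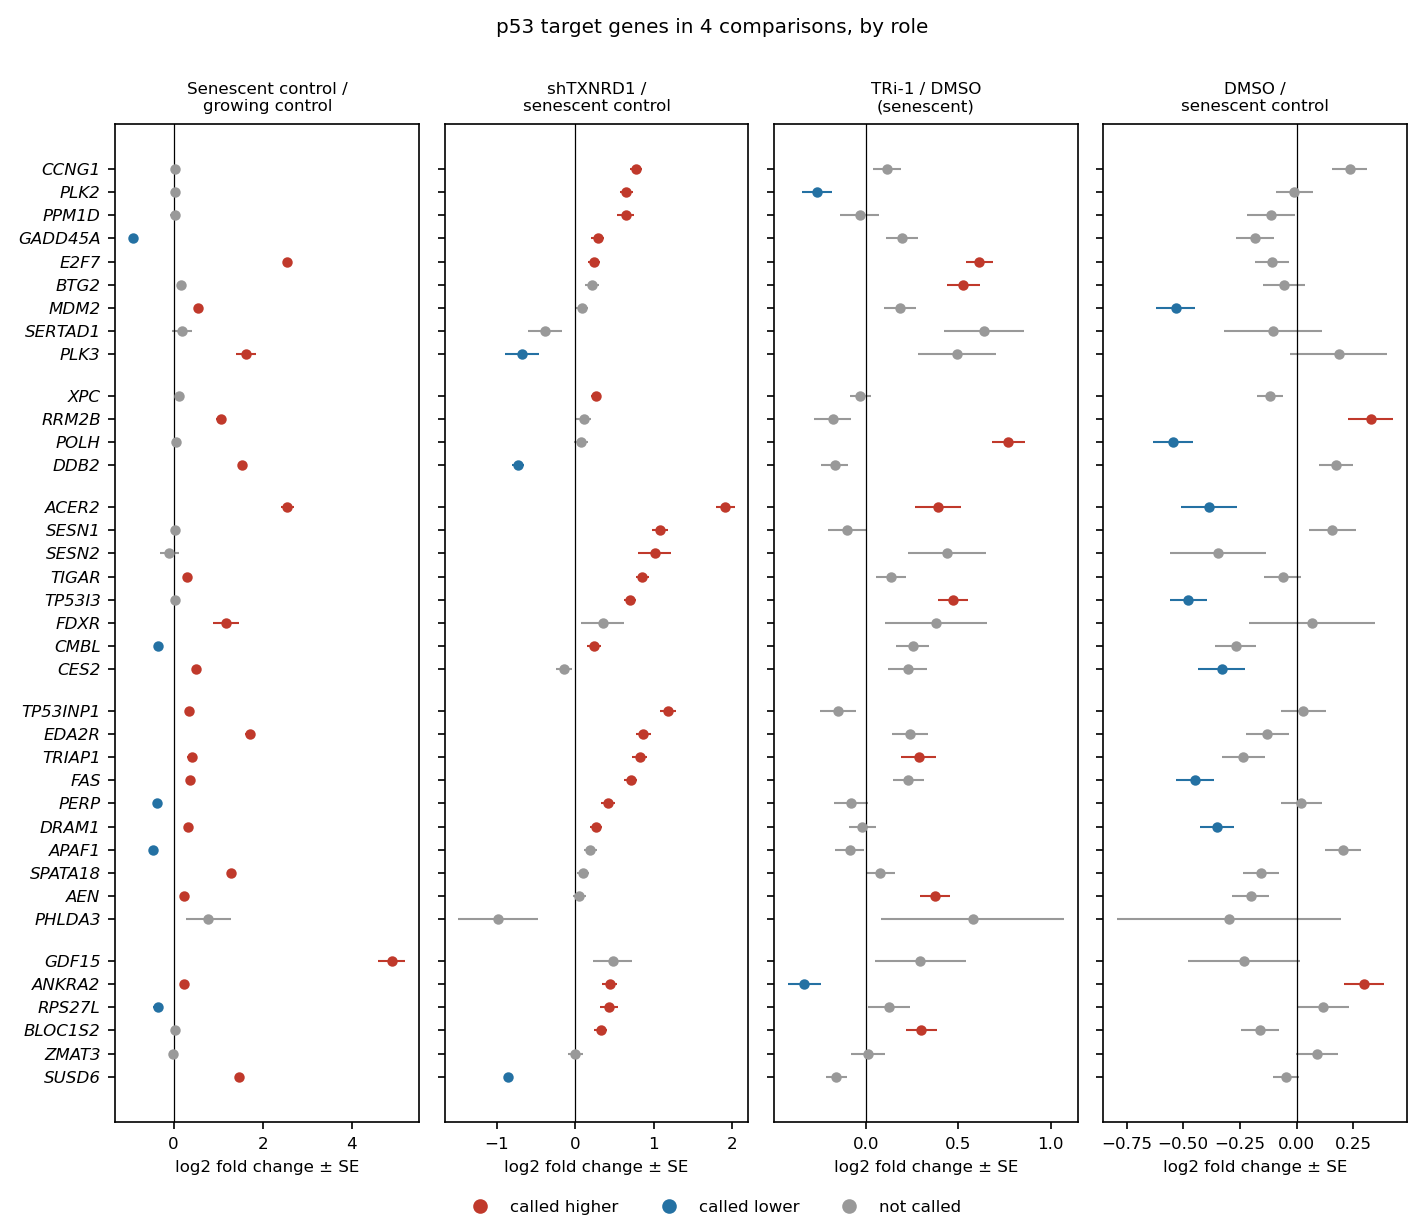
Log2 fold change (± SE) of each of the 37 p53 targets in 4 comparisons, grouped by role from top to bottom (feedback and cell cycle, DNA repair, redox and metabolism, cell death and autophagy, other) and sorted within a role by the shTXNRD1 change; red is called higher, blue called lower, grey not called. The horizontal scales differ between panels: the senescence changes reach 4.90 (GDF15), the TRi-1 changes at most 0.77 (POLH).

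GDF15, a secreted stress cytokine of the TGF-beta superfamily, had the highest rise of the list. It had 172, 188 and 145 CPM in the senescent control libraries, against 2.86, 6.45 and 7.80 CPM in the growing libraries. The change was 4.90 ± 0.31 on the log2 scale, or 29.8-fold (adjusted p = 2.88e-08). No growing library came near a senescent one.

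ACER2, an alkaline ceramidase of the Golgi that releases sphingosine (ENSG00000177076), had the fewest counts of the list. It stood at 6.73, 6.28 and 7.70 CPM in senescent control cells, against 1.35, 1.11 and 1.03 CPM in growing cells, a change of 2.56 ± 0.14 (adjusted p = 1.91e-09). E2F7, a repressor of E2F target genes (ENSG00000165891), had 118, 107 and 123 CPM in senescent control cells, against 22.1, 19.5 and 17.99 CPM in growing cells. Its change was 2.54 ± 0.08 (adjusted p = 3.65e-12), and the groups lay far apart for both genes.

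EDA2R, a TNF-receptor family member that binds ectodysplasin A2 (ENSG00000131080), had 20.7, 21.6 and 24.3 CPM in senescent control cells, against 7.66, 6.21 and 6.58 CPM in growing cells. The change was 1.70 ± 0.10 (adjusted p = 3.20e-09). PLK3, a stress-responsive polo-like kinase (ENSG00000173846), had 48.4, 51.8 and 42.6 CPM, against 10.6, 17.1 and 18.5 CPM, and changed by 1.63 ± 0.22 (adjusted p = 4.01e-05). In PLK3, as in GDF15, the low-GC library of growing cells was the lowest, and under GC correction the PLK3 change was 1.22 (adjusted p = 9.05e-14).

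DDB2, the damage-binding subunit that recognises UV lesions for nucleotide excision repair (ENSG00000134574), had 40.4, 39.6 and 39.2 CPM in senescent control cells, against 12.5, 14.5 and 14.4 CPM in growing cells. It rose by 1.53 ± 0.08 (adjusted p = 5.91e-10). SUSD6, a membrane protein with a sushi domain (ENSG00000100647), had 138, 143 and 135 CPM, against 47.5, 51.9 and 52.0 CPM, and rose by 1.46 ± 0.06 (adjusted p = 5.11e-11). RRM2B, the p53-inducible small subunit of ribonucleotide reductase (ENSG00000048392), had 186, 174 and 180 CPM, against 96.3, 79.9 and 81.8 CPM, and rose by 1.06 ± 0.10 (adjusted p = 6.09e-07). In all 3 genes the senescent libraries lay close together and above every growing library.

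SPATA18, a regulator of mitochondrial quality, rose by 1.28 ± 0.08 (adjusted p = 6.97e-09). FDXR, the mitochondrial ferredoxin reductase, rose by 1.18 ± 0.29 (adjusted p = 0.0039). The FDXR rise was under 2-fold with GC correction (0.745, adjusted p = 2.14e-06), as it was (0.88, adjusted p = 0.000921) when the 3 low-GC libraries were left out. Smaller rises were called for MDM2 (0.55), CES2 (0.51), TRIAP1 (0.40), FAS (0.38), TP53INP1 (0.34), DRAM1 (0.33), TIGAR (0.30), AEN (0.24) and ANKRA2 (0.24). TP53INP1 (ENSG00000164938) promotes p53 phosphorylation and autophagy, and it had 81.7, 79.8 and 86.6 CPM in senescent control cells, against 74.9, 60.4 and 59.95 CPM in growing cells. The AEN call was lost without growing replicate 1, senescent control replicate 1 or senescent control replicate 2 (adjusted p = 0.0802, 0.055 and 0.0775). That of ANKRA2 was lost without growing replicate 2 or 3 or senescent control replicate 1 or 3 (adjusted p = 0.0758, 0.0976, 0.0861 and 0.107).

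Lower in senescent cells were GADD45A (-0.92 ± 0.08, adjusted p = 3.76e-07), a growth arrest and DNA damage protein, APAF1 (-0.46), the apoptosome scaffold, and PERP (-0.38), a desmosomal protein with a part in apoptosis. CMBL (-0.35), a hydrolase, and RPS27L (-0.35), a ribosomal protein paralogue, made up the rest. For GADD45A the libraries read 41.2, 36.8 and 39.6 CPM in senescent control cells, against 79.5, 71.0 and 71.6 CPM in growing cells. The RPS27L call was lost without growing replicate 1 or 2 or senescent control replicate 2 (adjusted p = 0.0558, 0.0536 and 0.0631). Senescence went with higher and lower levels within the same role: E2F7 and PLK3 were higher and GADD45A lower among the cell cycle genes, while CCNG1, PPM1D and PLK2 showed changes of 0.03 each that were not called. With GC correction TP53I3 (-0.28) and SESN2 (-0.44) were also lower, and CCNG1 (0.22), BLOC1S2 (0.22) and ZMAT3 (0.18) higher. Without the 3 low-GC libraries SESN2 was lower too (-0.29, adjusted p = 0.0471). TP53I3, CCNG1, BLOC1S2 and ZMAT3 were not called in that set (adjusted p = 0.137 to 0.699).

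The hairpin was used to ask how loss of TXNRD1 mRNA changes senescent cells. With shTXNRD1, 21 of the 37 targets (56.8%) were higher than in the senescent control, against 25.8% of all genes tested, and 3 (8.11%) were lower, against 24.8%. Their median change was 0.29, and that of all genes was -0.01. A rise of at least 2-fold was called for 4 targets, ACER2, TP53INP1, SESN1 and SESN2 (10.8%), against 4.53% of all genes. The groups did not overlap for 25 targets, or 67.6%, against 55.4% of all genes. These shares are set beside those of senescence only as values, because the comparisons share the senescent control libraries.

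**Figure D2:**
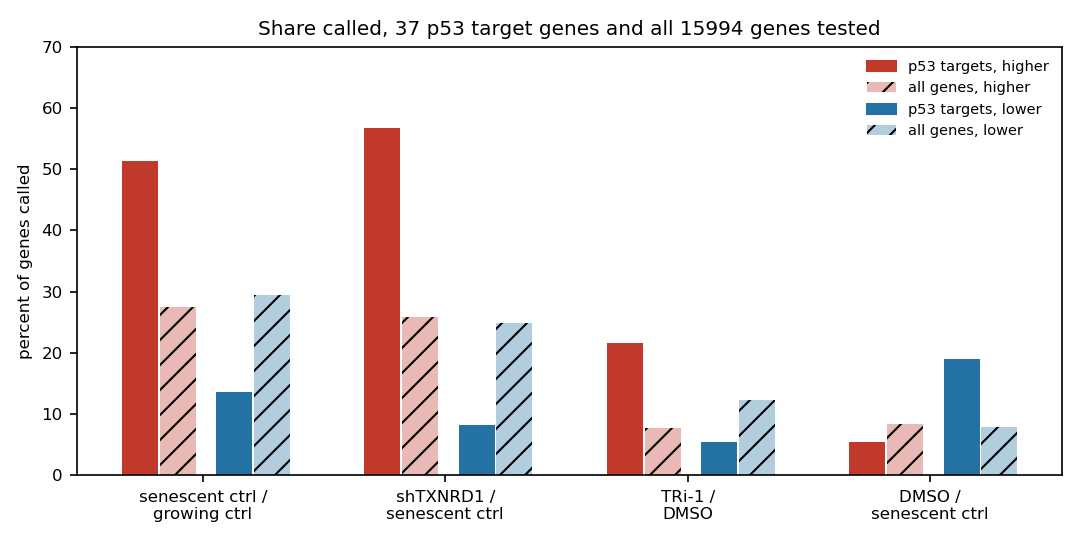
Percent of the 37 p53 targets (solid bars) and of all 15994 genes tested (hatched bars) called higher (red) or lower (blue) in 4 comparisons, on an axis from 0. The share of targets called higher was 51.4% in senescence, 56.8% with shTXNRD1, 21.6% with TRi-1 and 5.41% with DMSO, against 27.4, 25.8, 7.64 and 8.36% of all genes.

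Among the genes of redox defence, metabolism and nutrient sensing, 6 of 8 (75%) were higher with shTXNRD1 and 0 lower, against 25.8% of all genes higher and 24.8% lower. ACER2 had 23.9, 27.4 and 26.4 CPM in shTXNRD1 libraries, against 6.73, 6.28 and 7.70 CPM in senescent control libraries. The change was 1.91 ± 0.12 (adjusted p = 1.55e-08), and the hairpin libraries were the highest of all 15. SESN1, a sestrin that restrains mTORC1 and aids antioxidant defence, had 32.0, 35.7 and 40.6 CPM with shTXNRD1, against 16.5, 18.2 and 16.8 CPM in the senescent control. It rose by 1.07 ± 0.10 (adjusted p = 1.05e-06), and the motif match in its promoter is printed above. The SESN1 rise was slightly under 2-fold with GC correction (0.935), and also (0.98) when the 3 low-GC libraries were left out.

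SESN2, the related sestrin that senses leucine, had 63.5, 49.2 and 36.3 CPM with shTXNRD1, against 24.1, 27.5 and 22.4 CPM in the senescent control, a rise of 1.01 ± 0.21 (adjusted p = 0.00132). Its hairpin libraries spread widely, with the low-GC library lowest, and the change under GC correction was 1.34. TIGAR, a fructose bisphosphatase that slows glycolysis, rose by 0.86 ± 0.08 (adjusted p = 7.74e-07). TP53I3, a quinone oxidoreductase, rose by 0.70 ± 0.08 (adjusted p = 5.34e-06), and by 1.005 with GC correction (adjusted p = 5.45e-07). CMBL rose by 0.24 ± 0.09 (adjusted p = 0.0373), and this call was lost when either shTXNRD1 replicate 2 or 3, or any senescent control library, was left out (adjusted p = 0.0547 to 0.149). CES2, a carboxylesterase, changed by -0.14 and was not called.

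For FDXR the call depended on the GC setting. It had 19.6, 12.9 and 9.46 CPM with shTXNRD1, against 10.5, 12.5 and 9.90 CPM in the senescent control, and its change of 0.35 ± 0.28 was not called (adjusted p = 0.316). With GC correction it was 0.78 (adjusted p = 4.86e-07), and without the 3 low-GC libraries 0.56 (adjusted p = 0.00973). GDF15 behaved alike, at 299, 235 and 169 CPM with shTXNRD1, against 172, 188 and 145 CPM. Its change of 0.48 ± 0.25 (adjusted p = 0.127) was 0.99 with GC correction (adjusted p = 1.76e-08) and 0.66 without the 3 libraries (adjusted p = 0.00174). In both genes the order of the shTXNRD1 libraries followed their GC content.

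**Figure D3:**
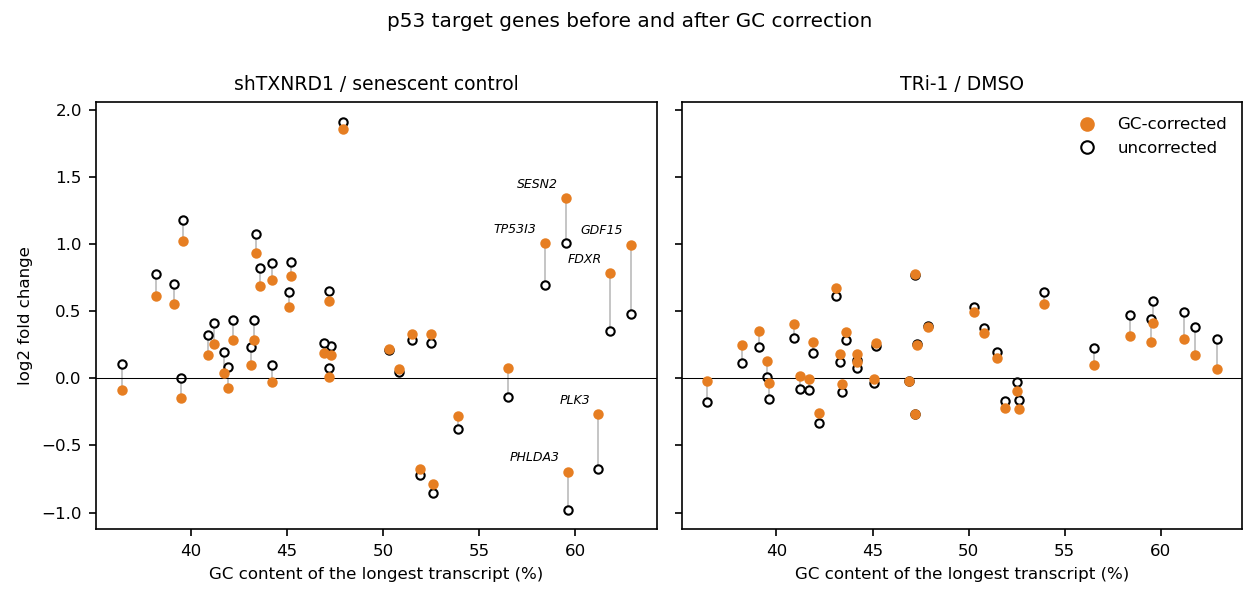
Log2 fold change of the 37 p53 targets against the GC content of their longest transcript (percent), without correction (open circles) and with GC correction (orange), for shTXNRD1 against the senescent control (left) and TRi-1 against DMSO (right). Correction raised the hairpin changes of the GC-rich SESN2, GDF15, FDXR, TP53I3, PLK3 and PHLDA3, lowered most of those under 50% GC, and moved the TRi-1 changes the other way.

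Across the 37 targets the hairpin change fell with GC content (Spearman correlation -0.26 over 37 genes that share the same libraries), as it did over all 15433 genes with a GC value (-0.31). For TRi-1 it went the other way (0.46 over the targets and 0.32 over all genes). With GC correction 24 targets were called higher with shTXNRD1, against 21 without it, while the share of all genes called higher was 29.4% with the correction and 25.8% without it.

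Among the genes of cell death, mitochondria and autophagy, 6 of 10 (60%) were higher with shTXNRD1 and 0 lower, against 25.8 and 24.8% of all genes. TP53INP1 had 163, 183 and 214 CPM with shTXNRD1, against 81.7, 79.8 and 86.6 CPM in the senescent control, and rose by 1.18 ± 0.10 (adjusted p = 3.06e-07). EDA2R had 36.5, 40.4 and 44.5 CPM, against 20.7, 21.6 and 24.3 CPM, and rose by 0.86 ± 0.09 (adjusted p = 3.51e-06). Every hairpin library was above every senescent control library for both.

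TRIAP1, a small inhibitor of apoptosis in the mitochondrial intermembrane space, rose by 0.82 ± 0.09 (adjusted p = 5.64e-06). FAS, the receptor for the death ligand FASLG, had 110, 124 and 137 CPM with shTXNRD1, against 74.4, 73.7 and 79.8 CPM in the senescent control, and rose by 0.70 ± 0.08 (adjusted p = 8.04e-06). PERP rose by 0.41 and DRAM1, a lysosomal membrane protein of autophagy, by 0.26. APAF1 (0.19), SPATA18 (0.10) and AEN (0.05), an exonuclease of apoptosis, were not called. APAF1 was called higher in the compared groups alone (0.25, adjusted p = 0.0264) and without shTXNRD1 replicate 1 (0.25, adjusted p = 0.0119). It was also called with a mean CPM of at least 5 (adjusted p = 0.0309), but not with GC correction (0.04, adjusted p = 0.405). In this role the higher genes thus included a death receptor and an inhibitor of apoptosis.

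PHLDA3, a competitor of AKT for membrane lipids, was the most uneven target. Its libraries read 23.2, 10.6 and 5.25 CPM with shTXNRD1, against 24.4, 31.8 and 20.8 CPM in the senescent control. The change of -0.98 ± 0.51 was not called (adjusted p = 0.129), but it was -1.69 and called (adjusted p = 0.016) without shTXNRD1 replicate 1. Its hairpin levels followed library GC, and with GC correction the change was -0.70 (adjusted p = 0.103).

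Of 9 feedback and cell cycle genes, 5 (55.6%) were higher and 1 (11.1%) lower with shTXNRD1, against 25.8 and 24.8% of all genes. MDM2 had 205, 230 and 253 CPM with the hairpin, against 215, 213 and 221 CPM in the senescent control. The change was 0.08 ± 0.09, with a 95% interval of -0.10 to 0.27 (adjusted p = 0.433), and the groups overlapped. CDKN1A, the p53-induced inhibitor of cyclin-dependent kinases that is not among the 37, had 1912, 1812 and 1570 CPM with shTXNRD1, against 1685, 1795 and 1666 CPM, a change of 0.04 (adjusted p = 0.744). With GC correction CDKN1A was higher by 0.33 (adjusted p = 0.00105), and without the 3 low-GC libraries by 0.12 (adjusted p = 0.0266).

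CCNG1, a cyclin that recruits a phosphatase to MDM2, had 274, 297 and 339 CPM with shTXNRD1, against 174, 176 and 180 CPM in the senescent control, and rose by 0.78 ± 0.08 (adjusted p = 1.41e-06). PPM1D, the WIP1 phosphatase that reverses damage signalling to p53, had 31.1, 33.2 and 37.4 CPM, against 22.5, 20.1 and 22.8 CPM, and rose by 0.64 ± 0.11 (adjusted p = 0.000156). PLK2, a polo-like kinase of centriole duplication, had 295, 338 and 371 CPM, against 213, 208 and 219 CPM, and rose by 0.65 ± 0.08 (adjusted p = 1.40e-05). Of the feedback genes, CCNG1 and PPM1D were therefore higher in cells where MDM2 was not called.

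Smaller changes were called for GADD45A (0.29) and E2F7 (0.23), whose libraries read 127, 138 and 145 CPM with shTXNRD1, against 118, 107 and 123 CPM in the senescent control. Leaving out senescent control replicate 2 ended the E2F7 call (adjusted p = 0.0858), as did leaving out shTXNRD1 replicate 3 (adjusted p = 0.0553). PLK3 was lower, at 39.5, 29.1 and 21.0 CPM with shTXNRD1, against 48.4, 51.8 and 42.6 CPM in the senescent control, by -0.67 ± 0.22 (adjusted p = 0.0198). Its hairpin libraries again followed GC, and the PLK3 change was -0.27 with GC correction (adjusted p = 1.54e-05). The call was lost without senescent control replicate 1 or 2 or shTXNRD1 replicate 2 or 3 (adjusted p = 0.0524 to 0.0739), and in a fit of the compared groups alone (adjusted p = 0.105). BTG2 (0.21, adjusted p = 0.0684) and SERTAD1 (-0.38, adjusted p = 0.166) were not called, but without shTXNRD1 replicate 1 BTG2 was higher (0.26, adjusted p = 0.0301) and SERTAD1 lower (-0.62, adjusted p = 0.0329). BTG2 was also called higher with GC correction (0.22, adjusted p = 0.0368) and in the compared groups alone (0.27, adjusted p = 0.0298). Without the 3 low-GC libraries it was not called (0.12, adjusted p = 0.189).

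Of 4 DNA repair genes, 1 (25%) was higher and 1 (25%) lower with shTXNRD1. Both shares were near those of all genes, 25.8% higher and 24.8% lower. DDB2 was at 25.6, 25.1 and 21.5 CPM with shTXNRD1, against 40.4, 39.6 and 39.2 CPM in the senescent control, and fell by 0.72 on the log2 scale (SE 0.08, adjusted p = 2.42e-06). XPC, its partner in lesion recognition, rose by 0.26 ± 0.06 (adjusted p = 0.00142). POLH, the polymerase that copies past UV lesions, changed by 0.08, and RRM2B, at 170, 188 and 222 CPM with shTXNRD1, against 186, 174 and 180 CPM, changed by 0.11. Neither was called.

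Of the other targets, SUSD6 was lower with shTXNRD1 at 79.3, 80.4 and 70.8 CPM, against 138, 143 and 135 CPM in the senescent control, by -0.85 ± 0.06 (adjusted p = 3.77e-08). ANKRA2 (0.44), an ankyrin-repeat protein, RPS27L (0.43) and BLOC1S2 (0.33), a subunit of a lysosomal trafficking complex, were higher. ZMAT3, an RNA-binding zinc finger protein, was at 183, 208 and 234 CPM with shTXNRD1, against 210, 196 and 218 CPM, and changed by 0.00 (95% interval -0.19 to 0.20). With PHLDA3 and SERTAD1 it was one of 3 targets called in none of the senescence, hairpin, TRi-1 and DMSO comparisons, although with GC correction ZMAT3 was lower with the hairpin (-0.15, adjusted p = 0.000732). Across the targets, 3 were lower with shTXNRD1, and without shTXNRD1 replicate 1 this count was 5, while the share of all genes called lower was 24.8% in the full set and 27.9% without that library.

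**Figure D4:**
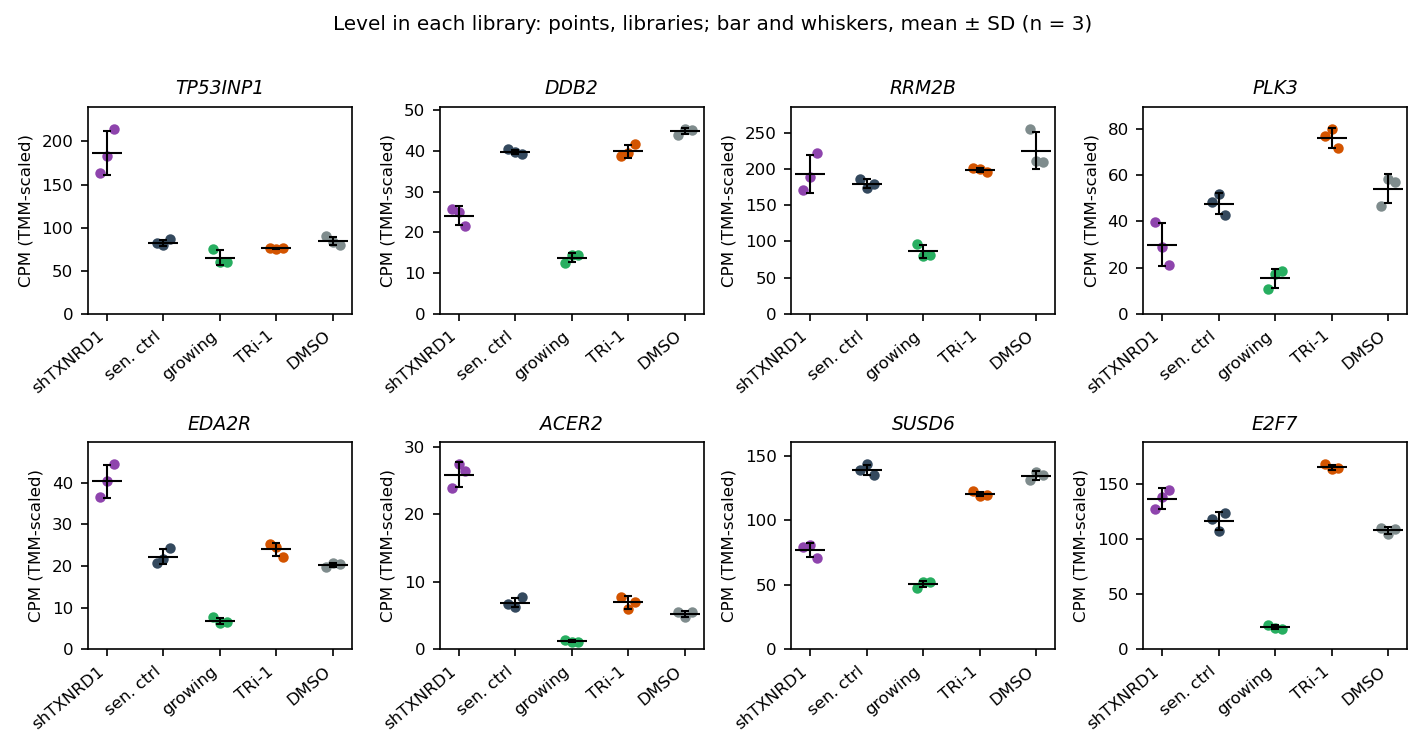
CPM (TMM-scaled) in each of the 15 libraries for the 8 targets with a change of at least 1 on the log2 scale in a called comparison and calls in at least 2 comparisons; points are libraries, bars and whiskers the mean ± SD (n = 3), and each axis starts at 0. TP53INP1, EDA2R and ACER2 were highest in the 3 shTXNRD1 libraries, DDB2 and SUSD6 lay between the senescent control and growing cells there, and E2F7 and PLK3 were highest with TRi-1.

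By mean level over the 5 groups, 21 of the 37 targets (56.8%) were highest with shTXNRD1, 9 (24.3%) with TRi-1, 2 with DMSO, 2 in the senescent control and 3 in growing cells. Of all genes tested, 28.2% were highest with shTXNRD1, 18.8% with TRi-1, 12.7% with DMSO, 9.63% in the senescent control and 30.7% in growing cells.

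TRi-1 was used to inhibit the TXNRD1 protein in senescent cells. Against DMSO, 8 of the 37 targets (21.6%) were higher with TRi-1, against 7.64% of all genes tested, and 2 (5.41%) were lower, against 12.2%. Changes were small, from -0.33 to 0.77, with a median of 0.20 for the targets and 0.01 for all genes. A 2-fold change was called for 0 targets, against 0.406% of all genes higher and 1.99% lower. The groups did not overlap for 29 targets, or 78.4%, against 48.7% of all genes.

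The count moved with the fit and with single libraries. In a fit of the TRi-1 and DMSO libraries alone 18 targets were higher and 5 lower, against 15.7 and 20.3% of all genes. With GC correction 18 were higher and 4 lower, against 16.1 and 17.9% of all genes, and without the 3 low-GC libraries 17 and 4, against 12.1 and 15% of all genes. Without DMSO replicate 2 or 3, or TRi-1 replicate 1 or 3, 5 targets were higher, and without DMSO replicate 1 or TRi-1 replicate 1 or 2 none was lower, against 2 in the full set. The shares of all genes were smaller in these fits too, at 4.74 to 5.19% higher in the first 4 and 8.4 to 8.62% lower in the other 3.

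POLH had the largest rise of the list. It had 48.1, 50.3 and 48.4 CPM with TRi-1, against 32.1, 27.7 and 26.3 CPM with DMSO, a change of 0.77 ± 0.09 (adjusted p = 3.61e-05). E2F7 had 168, 163 and 164 CPM with TRi-1, against 110, 104 and 109 CPM with DMSO, and rose by 0.61 ± 0.08 (adjusted p = 6.37e-05). BTG2, an antiproliferative gene, had 30.0, 33.4 and 29.4 CPM, against 23.7, 21.3 and 19.4 CPM, and rose by 0.53 ± 0.09 (adjusted p = 0.00108). In all 3 every TRi-1 library was above every DMSO library.

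TP53I3 had 34.7, 36.7 and 35.8 CPM with TRi-1, against 25.0, 26.2 and 26.1 CPM with DMSO, and rose by 0.47 ± 0.08 (adjusted p = 0.000965). AEN rose by 0.38 ± 0.08 (adjusted p = 0.00541). ACER2 had 7.74, 5.96 and 7.06 CPM, against 5.54, 4.74 and 5.50 CPM, and rose by 0.39 ± 0.12 (adjusted p = 0.0398). BLOC1S2 (0.30) and TRIAP1 (0.28) were also higher. The last 3 calls were lost on leaving out single libraries: ACER2 without any DMSO library or TRi-1 replicate 1 or 3 (adjusted p = 0.0685 to 0.162), BLOC1S2 without DMSO replicate 2 or 3 or TRi-1 replicate 1 or 3 (0.0561 to 0.0934), and TRIAP1 without DMSO replicate 2 or 3 or any TRi-1 library (0.0973 to 0.179).

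The lower genes were PLK2 (-0.27 ± 0.08, adjusted p = 0.0329) and ANKRA2 (-0.33 ± 0.09, adjusted p = 0.0178). PLK2 had 178, 180 and 171 CPM with TRi-1, against 227, 208 and 201 CPM with DMSO. Its call was lost without DMSO replicate 1 or 2 or any TRi-1 library (adjusted p = 0.0606 to 0.140), and that of ANKRA2 without DMSO replicate 1 or 3 or TRi-1 replicate 1 or 2 (adjusted p = 0.0508 to 0.0658). The groups of both genes did not overlap.

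Other targets did not pass the test, though some lay near it. MDM2 had 171, 165 and 174 CPM with TRi-1, against 157, 148 and 143 CPM with DMSO, a change of 0.18 with a 95% interval of 0.00 to 0.37 (adjusted p = 0.149). It was called higher in 3 other settings, namely the fit of these groups alone (0.18, adjusted p = 0.00904), the GC correction (0.27, adjusted p = 4.49e-06) and the set without the low-GC libraries (0.22, adjusted p = 0.00415). PLK3 had 77.0, 79.9 and 71.5 CPM, against 46.9, 58.4 and 57.2 CPM (0.49, adjusted p = 0.13). SERTAD1, a transcriptional coregulator of cell cycle genes, had 17.6, 19.04 and 15.7 CPM, against 10.6, 10.9 and 12.02 CPM (0.64, adjusted p = 0.0524). PLK3 and SERTAD1 were called higher in the same 3 settings. DDB2 (38.6, 39.4 and 41.6 CPM, against 44.0, 45.3 and 45.2 CPM) and SUSD6 (122, 119 and 120 CPM, against 131, 137 and 135 CPM) were called lower in the same 3 settings. FAS, CCNG1 and CMBL were called higher in those 3 settings as well. TIGAR and CES2 were called higher in 2 of them, and ZMAT3, FDXR and GADD45A in 1 of them.

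TP53INP1, SESN1 and SESN2, which the hairpin raised at least 2-fold, were not called with TRi-1 in the fit of all 15 libraries. TP53INP1 had 76.0, 75.1 and 76.6 CPM with TRi-1, against 89.9, 82.9 and 80.3 CPM with DMSO (-0.15, adjusted p = 0.319). SESN1 had 18.3, 18.02 and 17.1 CPM, against 19.4, 21.0 and 16.99 CPM (-0.10, adjusted p = 0.534). SESN2 had 25.9, 28.4 and 24.7 CPM, against 16.5, 22.1 and 19.7 CPM (0.44, adjusted p = 0.173), without overlap of the groups. SESN2 was called higher with GC correction (0.27, adjusted p = 0.000899) and in the fit of these groups alone (0.43, adjusted p = 0.0163), and in the last TP53INP1 was called lower (-0.16, adjusted p = 0.0256). EDA2R and RRM2B, both higher in senescence, were not called there either. EDA2R had 25.2, 24.4 and 22.2 CPM, against 19.8, 20.7 and 20.4 CPM (0.24, adjusted p = 0.0958), and was called higher with GC correction (0.26, adjusted p = 0.00592) and in the fit of these groups alone (0.23, adjusted p = 0.0321). For RRM2B the values were 201, 200 and 196 CPM, against 255, 211 and 210 CPM (-0.18, adjusted p = 0.238).

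DMSO was set against the senescent control to compare the controls of the 2 inhibitions. Of the 37 targets 2 (5.41%) were higher with DMSO, against 8.36% of all genes tested, and 7 (18.9%) were lower, against 7.87%. The median change was -0.11 for the targets and -0.02 for all genes. The groups did not overlap for 18 targets, or 48.6%, against 39.7% of all genes. With GC correction 6 were higher and 13 lower, against 16.8 and 15.7% of all genes, and without the 3 low-GC libraries 4 and 12, against 12 and 12.5%. Both calls of higher level were lost when any 1 of the 6 libraries was left out, except that 1 remained without DMSO replicate 3. In those fits 5.47 to 6.26% of all genes were higher.

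POLH (-0.55), MDM2 (-0.53), TP53I3 (-0.48), FAS (-0.45), ACER2 (-0.39), DRAM1 (-0.35) and CES2 (-0.33) were lower with DMSO. RRM2B (0.33) and ANKRA2 (0.30) were higher. MDM2 had 157, 148 and 143 CPM with DMSO, against 215, 213 and 221 CPM in the senescent control (adjusted p = 0.000707), and no library overlapped. The calls of ACER2, CES2, RRM2B and ANKRA2 were lost without most single libraries (adjusted p = 0.0510 to 0.181).

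This bears on the TRi-1 values, because both comparisons use the DMSO libraries. POLH averaged 48.9 ± 1.19 CPM with TRi-1, 28.7 ± 3.06 CPM with DMSO and 41.9 ± 0.850 CPM in the senescent control (SD, n = 3 each). TP53I3 averaged 35.8 ± 1.01, 25.8 ± 0.650 and 35.9 ± 2.76 CPM in the same groups. ANKRA2 averaged 19.9 ± 0.628, 25.1 ± 0.128 and 20.4 ± 0.921 CPM. In TP53I3 and ANKRA2 the TRi-1 mean was within 1 SD of the senescent control.

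E2F7 and BTG2 did not follow the course of TP53I3 and ANKRA2. E2F7 averaged 165 ± 2.43 CPM with TRi-1, 108 ± 3.07 CPM with DMSO and 116 ± 8.41 CPM in the senescent control. BTG2 averaged 30.9 ± 2.15, 21.5 ± 2.12 and 22.3 ± 0.779 CPM. Their TRi-1 libraries lay above all DMSO and all senescent control libraries. The same held for POLH, AEN and BLOC1S2 among the other targets called higher with TRi-1.

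The hairpin and TRi-1 comparisons have separate controls, so their changes could be tested against each other. They differed for 21 targets (56.8%), against 41.7% of all genes tested. The hairpin change was higher than the TRi-1 change for 14 targets (37.8%), against 22.1% of all genes tested, and lower for 7 (18.9%), against 19.5%. The share of targets lower is near that of all genes. The differences were largest for ACER2 (1.52 ± 0.17, adjusted p = 1.05e-05), TP53INP1 (1.33 ± 0.14, adjusted p = 5.86e-06) and SESN1 (1.18 ± 0.15, adjusted p = 2.48e-05). At the other end stood PLK3 (-1.17 ± 0.30, adjusted p = 0.00828), SERTAD1 (-1.02 ± 0.31, adjusted p = 0.0169), SUSD6 (-0.69 ± 0.08, adjusted p = 1.69e-05) and POLH (-0.69 ± 0.12, adjusted p = 0.000541).

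**Figure D5:**
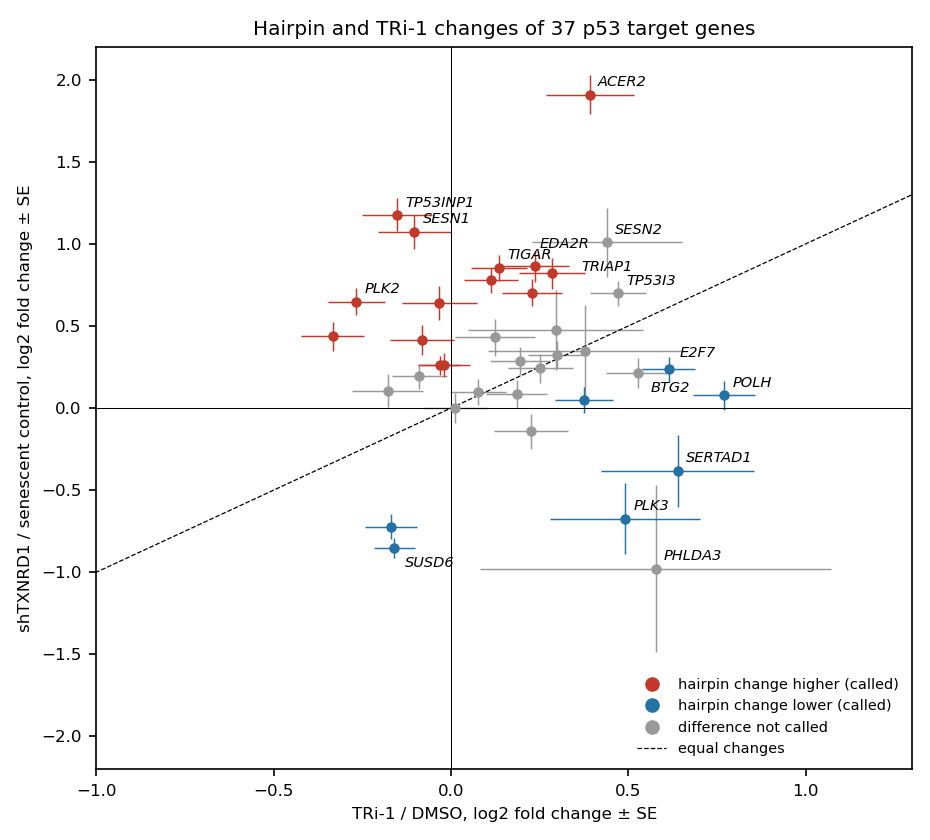
Log2 fold change (± SE) with shTXNRD1 against the senescent control (vertical) and with TRi-1 against DMSO (horizontal) for the 37 p53 targets; red points have a hairpin change called higher than the TRi-1 change, blue points one called lower, and the dashed line marks equal changes on axes of different scale. ACER2, TP53INP1 and SESN1 lie far above the line, and PLK3, SERTAD1, SUSD6 and POLH below it.

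Only a few targets were called in both. ACER2, TP53I3, TRIAP1, BLOC1S2 and E2F7 were higher in both, which is 5 of 37 (13.5%), against 2.72% of all genes tested. Leaving out single libraries ended the TRi-1 calls of ACER2, TRIAP1 and BLOC1S2 and the hairpin call of E2F7. TP53I3 and ACER2 averaged 35.8 and 6.92 CPM with TRi-1, and 35.9 and 6.90 CPM in the senescent control. PLK2 and ANKRA2 were higher with the hairpin and lower with TRi-1 (5.41%), against 3.30% of all genes, while 0 were lower in both, against 5.43%, and 0 lower with the hairpin and higher with TRi-1, against 2.02%. PLK2 differed between the inhibitions by 0.91 ± 0.12 (adjusted p = 2.73e-05) and ANKRA2 by 0.77 ± 0.13 (adjusted p = 0.000283). TP53I3 changed by 0.70 with the hairpin and 0.47 with TRi-1, and the difference of 0.23 (95% interval -0.01 to 0.47) was not called (adjusted p = 0.123), but it was 0.69 and called with GC correction (adjusted p = 0.00104).

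Of the calls made with the hairpin alone, TIGAR (difference 0.72), PPM1D (0.67), CCNG1 (0.67), EDA2R (0.63), PERP (0.49), FAS (0.48), XPC (0.29) and DRAM1 (0.28) also passed the test of the difference, as TP53INP1 and SESN1 did. SESN2 (0.57, adjusted p = 0.142), RPS27L (0.31, adjusted p = 0.142), CMBL (-0.01) and GADD45A (0.09) did not, so a hairpin change larger than that of TRi-1 was not shown for them. With GC correction SESN2 did pass (1.07, adjusted p = 3.99e-09), and it did so without the 3 low-GC libraries (0.85, adjusted p = 0.00121) or without shTXNRD1 replicate 3 alone (0.75, adjusted p = 0.0451). MDM2, with a difference of -0.10 that was not called, was called lower with GC correction (-0.34, adjusted p = 5.93e-06) and when the 3 low-GC libraries were left out (-0.215, adjusted p = 0.0234). With GC correction GDF15 (0.92) and FDXR (0.61) were also higher and ZMAT3 (-0.28) and BLOC1S2 (-0.23) lower, and the PLK3 difference was -0.56. Without the 3 low-GC libraries BTG2 (-0.485) and CES2 (-0.225) were lower, and the calls of AEN and DRAM1 were lost. GDF15, FDXR, ZMAT3 and BLOC1S2 were not called in that set (adjusted p = 0.06 to 0.339). The DRAM1 difference was lost without most single libraries and that of AEN (-0.33) without 7 of 12 (adjusted p = 0.0515 to 0.1 for both).

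Regulators of the pathway were read from a list of 23 genes, of which 21 were tested. With shTXNRD1 11 (52.4%) were higher and 3 (14.3%) lower, against 25.8 and 24.8% of all genes. HIPK2, a kinase that phosphorylates p53, was at 226, 237 and 236 CPM with shTXNRD1, against 476, 474 and 480 CPM in the senescent control, a change of -1.03 ± 0.04 (adjusted p = 2.31e-10). TP53BP2 (0.65) and PPP1R13B (0.84), which encode the ASPP proteins that promote p53-driven apoptosis, and MDM4 (0.33), the partner of MDM2, were higher. PPP1R13B had few counts, at 44, 41 and 33 in the shTXNRD1 libraries, against 26, 24 and 18 in the senescent control libraries. The MDM4 call was lost without shTXNRD1 replicate 3 (adjusted p = 0.0834).

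In senescence 4 of the 21 regulators (19%) were higher and 8 (38.1%) lower, against 27.4 and 29.5% of all genes. CHEK1, a checkpoint kinase of replicating cells, was lower by -1.25, SIRT1, a deacetylase of p53, lower by -0.65, and PPP1R13L, which encodes the inhibitory ASPP protein, higher by 1.61. PPP1R13L had few counts, at 78, 84 and 58 in the senescent control libraries, against 18, 31 and 29 in the growing libraries. With TRi-1 1 (4.76%) was higher and 2 (9.52%) lower, against 7.64 and 12.2% of all genes. TP53BP1 (-0.21, adjusted p = 0.0426), a damage response protein, and HIPK2 (-0.13, adjusted p = 0.0436) were lower, and both calls were lost without any 1 of the 6 libraries (adjusted p = 0.0805 to 0.138). MDM4 was the higher one (0.36, adjusted p = 0.0273), and its call was lost without any 1 of the 6 libraries of the comparison (adjusted p = 0.0532 to 0.0967). MDM4 averaged 21.7 ± 1.02 CPM with TRi-1, 16.95 ± 0.273 CPM with DMSO and 22.1 ± 0.487 CPM in the senescent control (SD, n = 3 each). With DMSO 0 of the 21 were higher and 6 (28.6%) lower, against 8.36 and 7.87% of all genes. MDM4 was among those lower, with a change of -0.40 under GC correction (adjusted p = 0.000141). This call was lost without senescent control replicate 1 or 3 or any DMSO library (adjusted p = 0.0531 to 0.0716).

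A further list of 33 p53 targets, of which 32 were tested, had 16 higher (50%) and 5 lower (15.6%) in senescence, against 27.4 and 29.5% of all genes. With shTXNRD1 10 were higher (31.2%) and 5 lower (15.6%), against 25.8 and 24.8%, so the share higher was near that of all genes. With TRi-1 5 were higher (15.6%) and 1 lower (3.12%), against 7.64 and 12.2%, and with DMSO 0 were higher and 2 lower (6.25%), against 8.36 and 7.87%. FUCA1, a lysosomal fucosidase, was at 15.4, 17.8 and 21.8 CPM with shTXNRD1, against 5.68, 5.68 and 6.25 CPM in the senescent control (1.64 ± 0.12, adjusted p = 6.90e-08). NINJ1, which ruptures the plasma membrane of dying cells, was at 26.6, 12.9 and 6.29 CPM with shTXNRD1, against 39.1, 47.3 and 34.2 CPM (-1.40 ± 0.46, adjusted p = 0.0223), and its hairpin libraries too followed GC content. The NINJ1 call was lost without senescent control replicate 2 or shTXNRD1 replicate 2 or 3 (adjusted p = 0.0622 to 0.0768). PTP4A1, a protein tyrosine phosphatase, was higher with shTXNRD1 by 1.046 (adjusted p = 4.57e-07). PRDM1, a transcriptional repressor, was at 91.5, 96.6 and 96.4 CPM in senescent control cells, against 6.31, 7.19 and 5.83 CPM in growing cells (3.88 ± 0.09, adjusted p = 7.74e-14). The secreted factors LIF (2.80) and PGF (2.30) were also higher in senescence. PGF had few counts, at 25, 19 and 25 in the senescent control libraries, against 2, 8 and 5 in the growing libraries. With TRi-1 CDIP1 (0.61, adjusted p = 0.0482), ZNF79 (0.51, adjusted p = 0.00742) and CYFIP2 (0.42, adjusted p = 0.00934) were higher, and the CDIP1 call was lost without any 1 of the 6 libraries (adjusted p = 0.06 to 0.18).

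The 8 classical targets kept out of the 37, CDKN1A with BAX, BBC3, PMAIP1 and the TRAIL receptor genes, had 6 higher (75%) and 0 lower in senescence, 3 higher (37.5%) and 2 lower (25%) with shTXNRD1, 2 higher (25%) and 0 lower with TRi-1, and 1 each way (12.5%) with DMSO. The shares of all genes higher were 27.4, 25.8, 7.64 and 8.36% in the same order, and those lower 29.5, 24.8, 12.2 and 7.87%. CDKN1A had 1685, 1795 and 1666 CPM in senescent control cells, against 290, 370 and 359 CPM in growing cells. With TRi-1 it had 1843, 1864 and 1814 CPM, against 1398, 1611 and 1624 CPM with DMSO, a change of 0.25 that was not called (adjusted p = 0.0753). The change was called in the fit of these groups alone (adjusted p = 0.0192) and without the 3 low-GC libraries (0.18, adjusted p = 0.00454). With GC correction it was 0.10 and not called (adjusted p = 0.286).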

How the data were processed

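The deposited counts are whole numbers for each Ensembl gene in each library, unscaled, since column totals differ. Per the labels, libraries were made with the KAPA RNA HyperPrep kit from total RNA and sequenced as 75-bp read pairs. RSEM 1.2.3, DESeq2, hg19 and mm10 are named, without their roles, in the submitters' processing notes. Strand and the treatment of shared reads are not stated there, so RPS27L, a paralogue of RPS27, is less certain. Symbols were matched by identifier for 52300 of 57736 genes, and unnamed genes held 0.680% of counts.

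Counts were scaled by TMM and fitted in edgeR 4.0.16 (R 4.3.3) with the robust quasi-likelihood F test over all 15 libraries, with 1 coefficient per group and filterByExpr, which left 15994 genes. Tests were two-sided, with Benjamini-Hochberg adjustment within each comparison. The hairpin and TRi-1 changes were compared by an interaction contrast. Exact permutation of 3 against 3 libraries cannot go below p = 0.1.

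Targets, roles and lists were chosen with earlier results of these data known. Values in every library were meant for targets called in at least 2 comparisons with a log2 change of at least 1 in at least 1 of them (8 genes), and those of other targets are shown where a comparison turns on them, chosen after their values were seen. From each list of regulators or further targets, the 3 largest called changes of the senescence, hairpin and TRi-1 comparisons were named, with MDM4 and CDKN1A throughout. One gene of the regulator list is not reported here. GC content is that of the longest GENCODE 29 transcript, and the correction removes a smooth trend of log counts on GC from each library. Alternatives were DESeq2 1.42.0, RLE scaling, no filter, a mean CPM of at least 5, replicate number as a term, a fit of only the compared groups, GC correction, each library left out and, added after seeing the data, the 3 low-GC libraries left out. The fit was tested on simulated counts.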

Additional observations from a re-analysis of the deposited data

Results flagged for a closer look

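For 21 of the 37 targets the hairpin change (shTXNRD1 against senescent control) and the TRi-1 change (TRi-1 against DMSO) differed by the edgeR interaction test, at an adjusted p under 0.05. The same test called 41.7% of all genes. The values are differences of log2 fold changes, hairpin minus TRi-1.

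The hairpin change was higher for ACER2 (1.52), TP53INP1 (1.33), SESN1 (1.18), PLK2 (0.91), ANKRA2 (0.77), TIGAR (0.72), PPM1D (0.67), CCNG1 (0.67), EDA2R (0.63), TRIAP1 (0.53), PERP (0.49), FAS (0.48), XPC (0.29) and DRAM1 (0.28).

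The hairpin change was lower for PLK3 (-1.17), SERTAD1 (-1.02), POLH (-0.69), SUSD6 (-0.69), DDB2 (-0.55), E2F7 (-0.38) and AEN (-0.33). DDB2 and SUSD6 fell with the hairpin, POLH and AEN were called with TRi-1 alone, and E2F7 was higher in both. GC content moved with this contrast, with a Spearman correlation of -0.45 over the 37 targets and -0.42 over all 15433 genes with a GC value.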

How the results depend on the processing

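None of the 88 target calls in 5 comparisons changed sign in any alternative, and 70 were kept in all of them. For TRi-1 against DMSO, 8 targets were higher and 2 lower, against 7.64 and 12.2% of all genes. In the compared groups alone these counts were 18 and 5, against 15.7 and 20.3% of all genes. With GC correction they were 18 and 4, against 16.1 and 17.9%, and without the 3 low-GC libraries 17 and 4, against 12.1 and 15%. Leaving out single libraries gave 5 to 7 higher and 0 to 1 lower, against 4.74 to 5.19% and 8.4 to 9.51% of all genes. For DMSO against the senescent control, 2 were higher and 7 lower, against 8.36 and 7.87% of all genes. With no filter 1 was higher, with a mean CPM of at least 5 there were 4, and in the compared groups alone 5. The shares of all genes higher in these 3 settings were 3.53, 13.1 and 14.9%. With GC correction 6 were higher and 13 lower, against 16.8 and 15.7% of all genes. Without the 3 low-GC libraries the counts were 4 and 12, against 12 and 12.5%. Leaving out single libraries gave 0 to 1 higher and 5 to 6 lower, against 5.47 to 6.26% and 5.17 to 5.95% of all genes. For shTXNRD1 against the senescent control, single libraries left out gave 19 to 23 higher and 2 to 5 lower. The shares of all genes in those fits were 22 to 27.1% higher and 21.7 to 27.9% lower. In senescence single libraries left out gave 17 to 19 higher and 4 to 5 lower, against 24.1 to 27.1% and 26.1 to 29% of all genes. For the difference between inhibitions they gave 13 to 17 higher and 6 to 9 lower, against 18.4 to 24.5% and 16.5 to 23.9%. Fitting fewer libraries changes the shared estimate of spread; beyond that the cause was not tested.

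With replicate number as a block, 1 target was lower with TRi-1 and 0 were higher with DMSO, and 10 of the 88 calls were lost with 0 gained. Deviations of same-numbered libraries from their group means correlated at -0.28 to 0.06 in senescence, 0.03 to 0.32 with the hairpin, -0.15 to 0.00 with TRi-1 and -0.10 to 0.13 with DMSO. With 3 libraries a group these values do not settle whether same-numbered libraries belong together.

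Counts per target and library ran from 22 to 9293, so counting error is largest for ACER2. Neither protein levels nor p53 binding were measured.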
